A study of Homo sapiens with 26 samples.

Results

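The genes described here are 5 cell-surface members of the tumour necrosis factor receptor superfamily that bind TRAIL or Fas ligand, namely TNFRSF10A, TNFRSF10B, TNFRSF10C and TNFRSF10D, which lie side by side on chromosome 8, and FAS on chromosome 10. They were taken by name, and every histone mark peak overlapping a gene body or the 50 kb to each side of it (GRCh37 gene annotation) was collected from all 16 peak lists. The 4 TNFRSF10 genes were treated as one neighbourhood, chr8:22827646-23132615 (305 kb), and FAS as another, chr10:90700414-90825542 (125 kb). Merging overlapping peaks across lists gave 49 H3K27ac regions (46 in the TNFRSF10 cluster and 3 at FAS) of 87608 in the genome, and 37 H3K4me1 regions (32 and 5) of 110276.

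TNFRSF10A (DR4) and TNFRSF10B (DR5) are the signalling receptors for TRAIL, and FAS is the receptor for Fas ligand. Once bound, each recruits the adaptor FADD and caspase-8 through an intracellular death domain and so starts the extrinsic pathway of apoptosis. TNFRSF10C and TNFRSF10D are decoys that bind TRAIL without passing on the death signal, the first because it is held in the membrane by a lipid anchor and has no intracellular part, the second because its death domain is cut short. TNFRSF10B and FAS are long-known targets of p53, the transcription factor that Nutlin-3a releases from MDM2. H3K27ac marks active promoters and enhancers, whereas H3K4me1 marks enhancers and the flanks of active promoters.

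Chromatin came from HCT116, a colorectal carcinoma cell line with wild-type p53, left at 0 h or collected after 1 or 10 h of Nutlin-3a, and from a derivative labelled HCT116_RAD21 at 0 and 1 h. Per the study's methods the 0 h cells received the drug's solvent, and the derivative is HCT116-RAD21-mAC, in which an auxin-inducible degron removes the cohesin subunit RAD21. The labels do not say whether auxin was added to a given culture, but the study's text says that the H3K27ac libraries of this line came from cells given the auxin analogue 5-Ph-IAA, and the peak names of all 4 lists carry the tag rad21KD. One engineered line thus stands for cohesin loss. H3K27ac was profiled in both lines (5 groups) and H3K4me1 in wild-type (WT) cells only (3 groups), with 2 lists per group that the labels number as replicates without saying whether they came from separate cultures. With 2 lists against 2 an exact permutation test cannot go below p = 0.333 and was not used.

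The H3K27ac lists held 31640 to 49127 peaks and the H3K4me1 lists 84492 to 92943. None of them gave read counts, so the depth behind a peak is unknown. Both WT 0 h H3K27ac lists and WT 1 h replicate 1 carried peak names without the word input, while the other 7 H3K27ac lists and all 6 H3K4me1 lists carried it. The methods say that peaks were called against an input sample. Whether the 3 lists were called without one is not given in the sources used here, and if so their folds and p-values are against another background. Those 3 lists covered 30.7 to 31.9 Mb and held 3 or 4 peaks on the mitochondrial genome, and the other 7 covered 49.1 to 66.6 Mb and held 0. This difference in naming moved with the peaks of the death receptor genes. The TNFRSF10B promoter peak was 1638 to 1727 bp wide in the 3 lists named without input and 3063 to 6748 bp in the 7 named with it, and at TNFRSF10A the widths were 2453 to 2640 bp against 3205 to 4474 bp. WT 10 h against 0 h, and the RAD21 line against WT at 0 h, compared lists of different name forms throughout, so in those contrasts the group and the form of the names cannot be told apart. The peak names of RAD21 line 0 h replicate 2 carry 2 replicate numbers, and whether that list pools samples is not given in the sources used here. In both H3K4me1 lists at 1 h and in RAD21 line 1 h replicate 2 the number inside the peak names differs from the label's, and lists are called here by the label. A fit with name form as a term takes the effect of the form from the difference between the 2 WT 1 h lists alone, and a WT value read within one form has a single list at 1 h, which is assumed to vary like the other groups. Such values show what the lists hold and are no replicated test. Of 8 epithelial and colon marker promoters, 5 lay under H3K27ac in all 10 lists, and of 3 blood and 3 stromal or endothelial ones none did in any list.

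All 5 death receptor promoters, taken as the 1000 bp before to the 200 bp after the start site, lay under an H3K27ac peak in all 10 lists. The share of all protein-coding promoters that did so was not counted. By a different measure, 9889 of 19949 protein-coding start sites lay under H3K27ac in both WT 0 h lists. At TNFRSF10B the summit, the point of highest signal, fell 229 to 299 bp downstream of the start site in every list, and at FAS 366 to 528 bp downstream. Of the 5 genes, only these 2 held a pair of p53 half-sites that passed the search below, in both cases within this acetylated stretch. The search looked, on both strands and from 1000 bp before to 2000 bp after each start site, for 2 abutting p53 half-site decamers. Both cores had to be intact (C, then 2 bases that are each A or T, then G), with at most 2 mismatches in all. It found such a pair at 223 of 19949 protein-coding genes (1.12%). Its middle lay 400 bp downstream of the TNFRSF10B start site and 661 bp downstream of the FAS start site, with 2 mismatches in each. Pairs with bases between the half-sites were not searched for, so the search does not show that the other genes lack p53 elements.

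The FAS pair is shown because its position can be read against the peaks. It lies at chr10:90751066-90751085 (GRCh37, plus strand) in the first intron of the coding FAS transcripts, which is also in the first exon of ACTA2 transcripts on the other strand, and the capitals mark the 2 cores.
FAS p53 half-site pair: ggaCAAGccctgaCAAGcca

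The TNFRSF10B pair lay inside the H3K27ac promoter peak in 10 of 10 lists, 101 to 171 bp from the summit, and the FAS pair likewise in 10 of 10, 133 to 295 bp from the summit. The 2 genes differed in H3K4me1. No H3K4me1 peak covered the TNFRSF10B pair in any of the 6 lists, and the FAS pair was covered in 3 of 6 (WT 0 h replicate 2 and both 1 h lists). A match of letters is a description, and p53 binding was not measured in these lists.

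**Figure D1:**
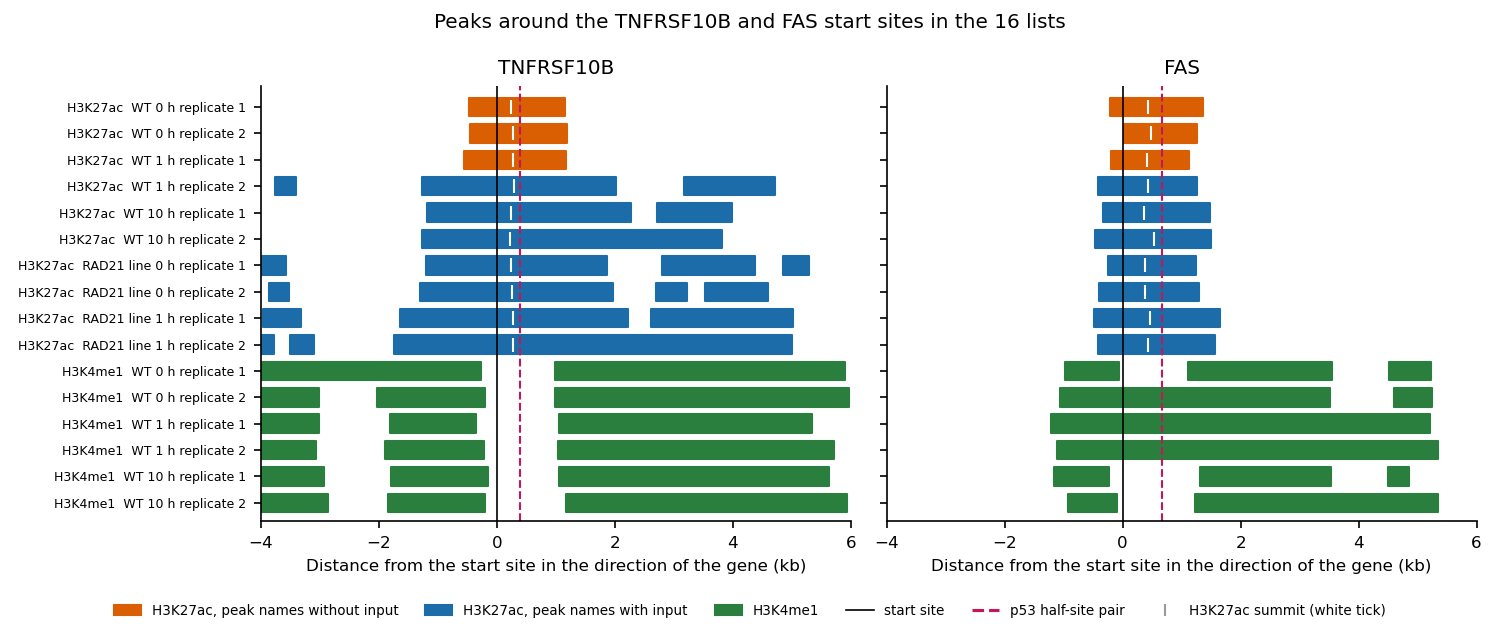
Peaks from 4 kb before to 6 kb after the start sites of TNFRSF10B (left) and FAS (right), with distance in kb on the horizontal axis and 1 row for each of the 16 lists. Orange and blue bars are H3K27ac peaks of lists with peak names without and with input, green bars are H3K4me1 peaks, white ticks are H3K27ac summits, and the dashed line is the p53 half-site pair. In every H3K27ac list the pair falls inside the promoter peak just downstream of the summit, and at TNFRSF10B it falls in a gap of H3K4me1 in all 6 lists.

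The promoters differed widely in how strong their H3K27ac was within a list. Strength was compared by rank, as the percentile of a region's -log10 p-value among the 18757 regions called in all 10 H3K27ac lists, because p and fold both depend on the depth and background of each list. TNFRSF10B, the TRAIL receptor DR5, stood at the 98.4 to 99.5 percentile in every list. By -log10 p it was the highest of the 5 promoters in 10 of 10 lists, FAS was always 4th and TNFRSF10C always last. By fold TNFRSF10B was highest in 9 lists and TNFRSF10C lowest in 9, and FAS was 4th in the 7 lists named with input and 2nd or 3rd in the others. In WT 1 h replicate 1 the fold of TNFRSF10B (9.11) was below those of TNFRSF10D (9.74) and FAS (9.73), and in WT 0 h replicate 2 that of TNFRSF10C (5.77) was above that of TNFRSF10A (5.24). By -log10 p the places between belonged to TNFRSF10A and TNFRSF10D, which changed order from list to list, also within the WT 1 h, WT 10 h and RAD21 line 0 h groups.

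At TNFRSF10A, the TRAIL receptor DR4, the percentile was 68.2 and 65.8 in the 2 WT 0 h lists, 80.1 and 91.8 at 1 h and 75.9 and 82.0 at 10 h, and in the RAD21 line 69.1 and 69.4 at 0 h and 92.8 and 91.2 at 1 h. In both lines each 1 h list lay above each 0 h list. The FAS promoter peak stood lower, at 29.2 and 40.2 in WT cells at 0 h, 58.3 and 55.0 at 1 h and 46.8 and 47.4 at 10 h, and in the RAD21 line at 39.5 and 38.9 and then 51.0 and 48.8. Here too each 1 h list lay above each 0 h list of its line, and the share of all regions that did so was not counted. This peak also holds the start of the antisense ACTA2 transcript, and peaks have no strand, so its signal cannot be assigned to FAS alone.

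The decoy TNFRSF10D read 73.7 and 71.9 in WT cells at 0 h, 88.9 and 84.0 at 1 h, 84.7 and 75.0 at 10 h, and in the RAD21 line 68.6 and 75.6 at 0 h and 79.0 and 77.3 at 1 h. It was above both 0 h lists in every WT list at 1 and 10 h (share of all regions not counted). The other decoy, TNFRSF10C, sat near the bottom, at 12.9 and 11.7 at 0 h, 5.58 and 2.12 at 1 h, 33.3 and 28.6 at 10 h, and 8.25 and 7.21 and then 13.6 and 20.3 in the RAD21 line. In WT cells it was thus lowest at 1 h and highest at 10 h, without overlap between groups (share of all regions not counted). In the lists' own unit its -log10 p was 15.4 and 14.3 at 0 h, 10.2 and 7.31 at 1 h and 43.5 and 36.6 at 10 h, against 544 and 476, 258 and 421, and 1207 and 936 for TNFRSF10B. The share of G and C upstream was alike, at 60.0 to 63.0% in the 200 bases before the 5 start sites against a median of 64.5% for protein-coding genes. The same bases held 15, 16 and 13 CpG at TNFRSF10A, TNFRSF10B and FAS. They held 10 and 9 at the decoys TNFRSF10C and TNFRSF10D, against a median of 15.

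**Figure D2:**
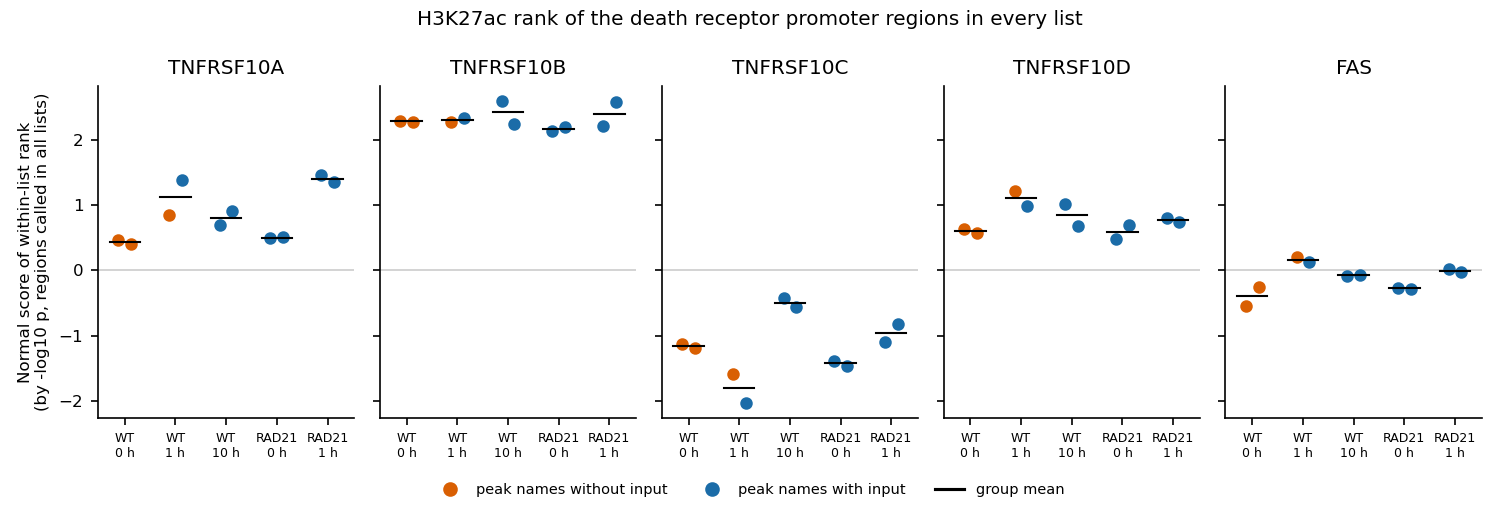
Normal score of the within-list rank (vertical axis, 0 is the middle of the 18757 regions called in all 10 lists) for each death receptor promoter region, with 1 point per H3K27ac list (orange without and blue with input in the peak names) and a bar at each group mean. TNFRSF10B stays at the top in all lists, TNFRSF10A and FAS are higher at 1 h than at 0 h in both lines, and TNFRSF10C is lowest at 1 h and highest at 10 h in WT cells.

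Whether 1 h of Nutlin-3a shifted the promoters in WT cells was tested with limma on the normal score of each rank, in which 0 is the middle of the list and 1 is a standard deviation of the normal curve. FAS rose by 0.57 ± 0.13 (SE, 2 lists per group, adjusted p = 0.00595), TNFRSF10A by 0.68 ± 0.16 (adjusted p = 0.00656) and TNFRSF10D by 0.50 ± 0.14 (adjusted p = 0.0169). TNFRSF10C fell by 0.65 ± 0.22 (adjusted p = 0.0413), and TNFRSF10B differed by 0.02 ± 0.18 (adjusted p = 0.949). Thus 3 of 5 promoters rose, where 14.3% of all 18757 regions did, and 1 fell, where 14.8% did. Over the 11 testable regions of both neighbourhoods 6 changed (54.5%) against 29.1% of all regions, and their median change was -0.11 against -0.01.

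The WT 1 h lists differed in name form, and the comparison was therefore read again with that form as a term, which for this contrast equals replicate 1 at 1 h against the 2 lists at 0 h, all named without input. FAS then read 0.61 (adjusted p = 0.00301), TNFRSF10D 0.62 (adjusted p = 0.00126), TNFRSF10A 0.41 (adjusted p = 0.0118) and TNFRSF10C -0.43 (adjusted p = 0.232). In these terms FAS, TNFRSF10D and TNFRSF10A passed and TNFRSF10C did not, with a single list at 1 h. All 4 calls were lost when regions were ranked by fold in place of p (adjusted p of 0.141 to 0.381), a setting in which no region of the genome passed, although 4 of the 11 had an unadjusted p under 0.05, or with only the 4 lists compared (adjusted p of 0.0664 to 0.162). Over all alternatives the adjusted p of FAS ran from 0.000725 to 0.613 and that of TNFRSF10A from 1.49e-06 to 0.508. Leaving out WT 0 h replicate 1 gave an adjusted p of 0.0788 for FAS, 0.0781 for TNFRSF10D and 0.155 for TNFRSF10C, leaving out WT 0 h replicate 2 gave 0.0599 for TNFRSF10A, 0.105 for TNFRSF10D and 0.122 for TNFRSF10C, and leaving out WT 1 h replicate 2 gave 0.206 for TNFRSF10C.

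At 10 h none of the 5 promoters passed against 0 h (4 of the 11 regions had an unadjusted p under 0.05), where 9.70% of all regions rose, 8.56% fell and 18.3% did either, and 1 of the 11 regions did, the promoter of a neighbouring gene. All 5 changes were above 0, from 0.14 ± 0.18 for TNFRSF10B to 0.66 ± 0.22 for TNFRSF10C (adjusted p = 0.0517). Under the 9 to 11 alternatives each of the 5 passed at least once, TNFRSF10A in 3 and the others in 1 each, with a lowest adjusted p of 0.00708 (TNFRSF10A), 0.00917 (TNFRSF10C), 0.0118 (TNFRSF10B), 0.0171 (TNFRSF10D) and 0.018 (FAS). Ranked by fold, TNFRSF10A read 1.47 (adjusted p = 0.0455). The 10 h and 0 h lists carry different name forms, so this contrast holds both differences. From 1 to 10 h TNFRSF10C rose by 1.31 ± 0.22 (adjusted p = 0.000849), the only one of the 5 promoters to pass in a contrast where 15.8% of all regions rose and 16.5% fell (32.4% in all, against 2 of the 11 regions). Against the single 1 h list named with input (WT 1 h replicate 2) the rise was 1.53 (adjusted p = 0.00022). Ranking by fold gave 1.12 with an adjusted p of 0.091, in a range of 0.000103 to 0.208 over 11 alternatives. TNFRSF10A read -0.31 ± 0.16 (adjusted p = 0.146) over all lists and -0.58 (adjusted p = 0.00197) against that single 1 h list.

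In the RAD21 line all 4 H3K27ac lists carry the same name form, which makes 1 h against 0 h the contrast least exposed to it. TNFRSF10A rose by 0.90 ± 0.16 (adjusted p = 0.0011), the one death receptor promoter of the 5 that passed, where 14.4% of all regions rose and 13.4% fell. Its -log10 p was 112 and 135 at 0 h and 489 and 885 at 1 h, with fold enrichments of 25.7 and 21.9 and then 90.1 and 121. The groups did not overlap in either unit, but in -log10 p the same was true of all 5 promoters in this contrast. The share of all regions without overlap was not counted. The call was lost only when regions were ranked or compared by fold (adjusted p = 0.273 and 0.0906, the range over 12 alternatives being 1.6e-07 to 0.273). The other 4 promoters read 0.46 ± 0.22 for TNFRSF10C, 0.27 ± 0.13 for FAS, 0.23 ± 0.18 for TNFRSF10B and 0.19 ± 0.14 for TNFRSF10D, with adjusted p from 0.13 to 0.36. Among the 11 regions 2 changed (18.2%), below the 27.7% of all regions. With name form as a term, or within lists named with input, more of the 11 passed, and more of all regions did.

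The RAD21 line and WT cells were compared at each time. At 0 h none of the 5 promoters differed, with changes of -0.26 (TNFRSF10C) to 0.12 (FAS) and adjusted p of 0.372 or more, where 16.8% of all regions were higher, 20.7% lower and 37.5% either. The lists compared had different name forms, and with that form as a term TNFRSF10A read -0.48 (adjusted p = 0.0377) in place of 0.06, a value that carries the difference between the 2 WT 1 h lists over to 0 h. At 1 h TNFRSF10C stood higher in the RAD21 line by 0.85 ± 0.22 (adjusted p = 0.0267), where 5.68% of all regions were higher and 6.15% lower. The other 4 did not pass (adjusted p of 0.134 or more), so that 1 of the 11 regions differed (9.09%) against 11.8% of all regions. Against the single WT list named with input (1 h replicate 2) the TNFRSF10C difference was 1.07 (adjusted p = 0.00745). It was lost without WT 1 h replicate 2 (adjusted p = 0.0628) and without RAD21 line 1 h replicate 1 (0.0966) or replicate 2 (0.206), with only the lists compared (0.144) and when ranked by fold (0.341), and on the log2 fold scale it read -0.07 (0.918).

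The difference between the 2 lines in their response to 1 h of Nutlin-3a was tested directly. TNFRSF10C alone of the 5 passed, at 1.11 ± 0.31 (adjusted p = 0.0219), since it read -0.65 in WT cells and 0.46 in the RAD21 line, where 11.7% of all regions were higher and 11% lower in this test. With name form as a term it read 0.89 (adjusted p = 0.0515), and without RAD21 line 1 h replicate 2 0.97 (adjusted p = 0.108). The call was also lost without WT 0 h replicate 1 (0.0685), WT 0 h replicate 2 (0.0559) and RAD21 line 0 h replicate 2 (0.0574). For TNFRSF10A the response differed by 0.22 ± 0.22 (adjusted p = 0.502), and by 0.50 (adjusted p = 0.0159) with name form as a term, which leaves WT 1 h replicate 1 alone at 1 h, so this call depends on that term. FAS and TNFRSF10D, which passed in WT cells and not in the RAD21 line, were not shown to differ either (-0.29 ± 0.18, adjusted p = 0.267, and -0.31 ± 0.20, adjusted p = 0.273).

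**Figure D3:**
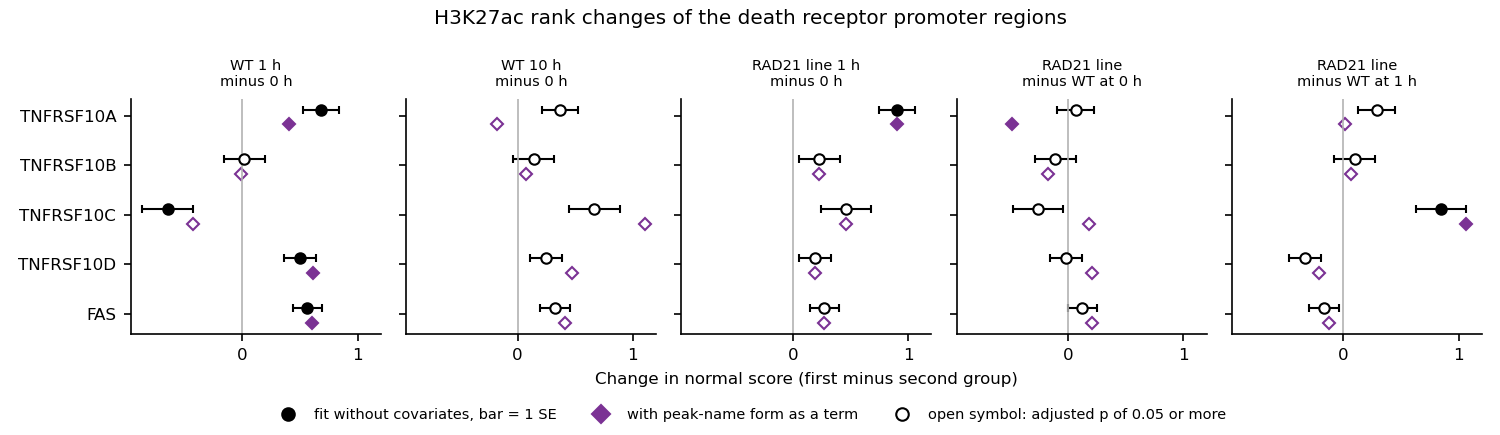
Change in normal score (horizontal axis, first minus second group) of the 5 death receptor promoter regions in 5 H3K27ac contrasts, 1 panel each. Black circles are the fit without covariates with bars of 1 SE, purple diamonds the fit with peak-name form as a term, and filled symbols have an adjusted p under 0.05. TNFRSF10A is filled at 1 h in both lines, FAS and TNFRSF10D at 1 h in WT cells, and TNFRSF10B in none.

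Away from the promoters the cluster held many more acetylated stretches, most of them weak. Of the 49 H3K27ac regions 5 were the receptors' own promoters, 4 were promoters of neighbouring genes, 23 lay inside a receptor gene, 8 were intergenic and the rest lay inside other genes. Those called in all 10 lists numbered 11 (22.4%, against 21.4% of the genome's regions), and 14 were called in 1 list only. All 11 also lay under H3K4me1 in all 6 lists of that mark (share of all regions not counted). The FAS gene body held no H3K27ac region beyond its promoter, and the 2 other regions of that neighbourhood, one inside STAMBPL1 and ACTA2 and one intergenic, were called in RAD21 line lists only.

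A region was counted as gained when both lists of a group called it and neither list of the other group did, and as lost in the reverse case. In WT cells 0 of 49 were gained at 1 h (1.51% of all regions were) and 1 was lost (1.32%), inside TNFRSF10A. At 10 h against 0 h 2 were gained (11.4% of all regions) and 0 lost (1.90%), and against 1 h 3 were gained (8.89%) and 0 lost (1.88%). One of these, chr8:22884847-22885976 inside TNFRSF10B with its centre 41133 bp from the start site, was gained against both earlier times, with -log10 p of 7.66 and 4.74 at 10 h, and it was also called in RAD21 line 0 h replicate 2 (5.48).

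In the RAD21 line 7 of 49 regions were gained from 0 to 1 h (14.3%, against 4.61% of all regions) and 1 was lost (2.87% of all regions). Of the 7, 4 lay inside TNFRSF10D, 1 was intergenic with its centre 11381 bp from the TNFRSF10D start site, and the others lay inside RHOBTB2 and ENSG00000284956. The intergenic one, chr8:23032322-23033522, was the strongest, with -log10 p of 20.9 and 30.5 in the 1 h lists of that line, 4.12 in WT 1 h replicate 2 and no peak in the other 7 lists. The 4 inside the gene were weak, with -log10 p of 3.97 to 7.89 in the RAD21 line 1 h lists, and 3 of them were also called in at least 1 WT 10 h list. They lay close together, between positions 23001765 and 23008105, and were counted singly, so the 7 are not independent of each other. Demanding a -log10 q of at least 5 left 2 of the 7. The 1 h lists of this line also covered more of the genome than its 0 h lists (62.6 and 64.1 Mb against 49.1 and 53.2 Mb). The part of list size in the gains was not tested.

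Between the lines, 5 regions were called in both RAD21 line lists and in no WT list at 0 h (5.28% of all regions) and 1 the other way (2.83%), and at 1 h 6 (3.23%) and 0 (1.15%). One of them, chr8:23000064-23001537 inside TNFRSF10D with its centre 20740 bp from the start site, was called in all 4 RAD21 line lists and in no WT list at any time, with -log10 p of 3.63, 7.47, 6.97 and 5.38. It had no H3K4me1 in any WT list. At a -log10 q of at least 5 the counts fell to 0 at 0 h and 2 at 1 h. In all, the peaks of gained or lost regions had a -log10 q of 1.59 to 28.4 with a median of 4.48, and 46 of 73 were under 5.

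**Figure D4:**
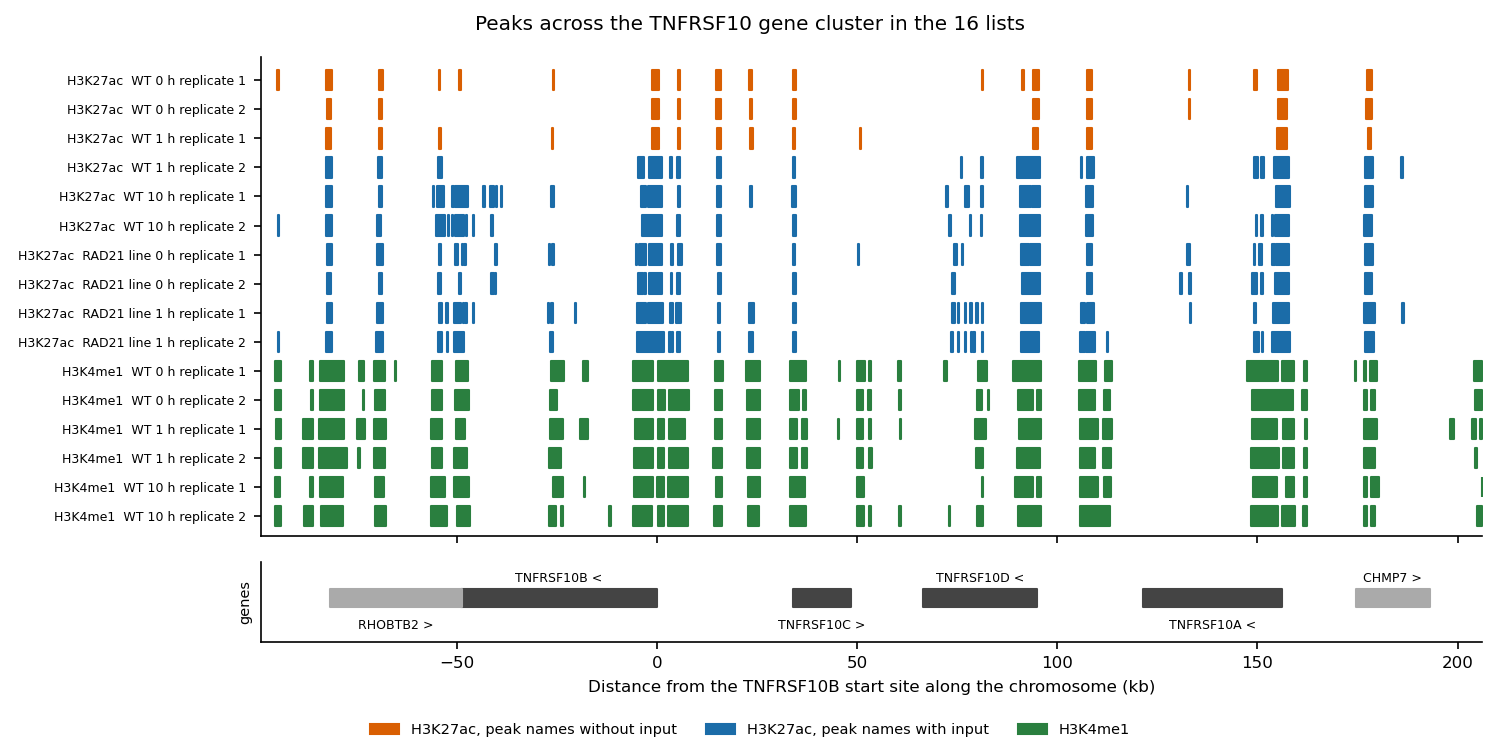
Peaks across the TNFRSF10 cluster in the 16 lists (rows), with distance from the TNFRSF10B start site in kb on the horizontal axis, H3K27ac in orange (peak names without input) and blue (with input), H3K4me1 in green, and gene bodies below with arrowheads for their direction. The receptor promoters carry peaks in every H3K27ac list. Small peaks inside TNFRSF10D are present in both RAD21 line lists at 1 h, and also in both at 0 h and in both WT lists at 10 h.

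The length under H3K27ac peaks in the TNFRSF10 cluster was 16.4 and 13.2 kb in WT cells at 0 h, 13.4 and 27.7 kb at 1 h and 32.8 and 31.5 kb at 10 h, and 27.6 and 25.4 kb and then 36.9 and 37.1 kb in the RAD21 line. The 2 WT 1 h lists lay far apart, the shorter being the one named without input. The part of list size in these lengths was not tested. As a share of everything a list called, the cluster took 0.42 to 0.59 per 1000 in all 10 lists. Its mean was highest in the RAD21 line at 1 h on both scales, at 0.59 and 0.58 per 1000 against 0.56 and 0.48 at 0 h. At FAS the length was 1.25 to 2.21 kb in 9 lists and 3.33 kb in RAD21 line 1 h replicate 1.

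**Figure D5:**
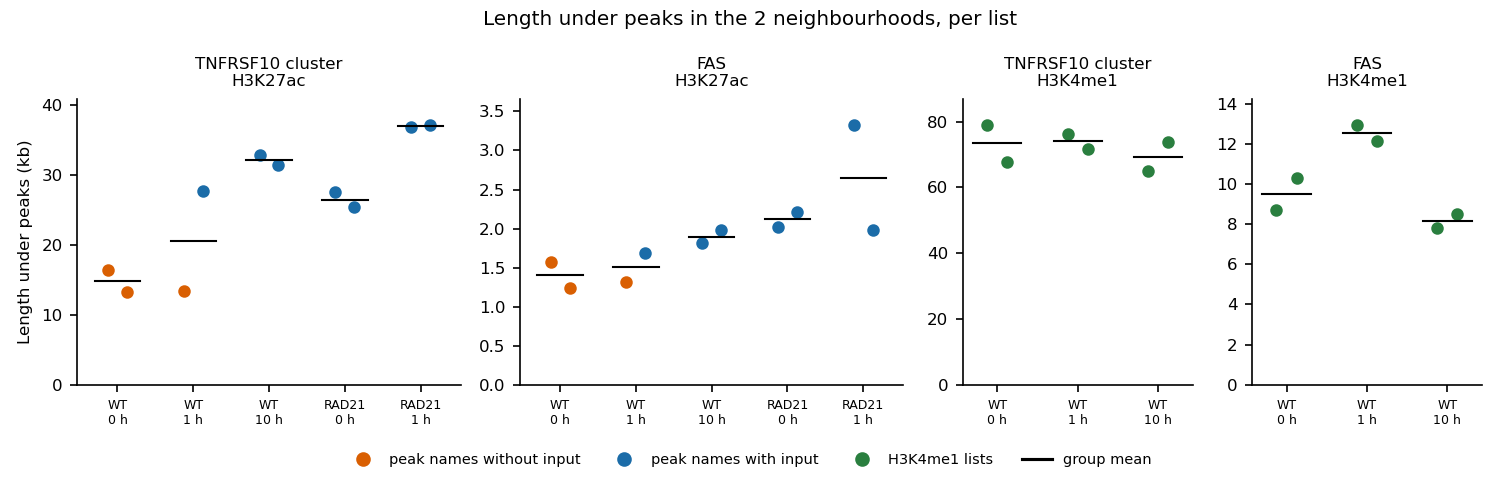
Length under peaks in kb (vertical axes, each from 0) in the TNFRSF10 cluster and at FAS for H3K27ac (2 panels on the left) and H3K4me1 (2 panels on the right), with 1 point per list and a bar at each group mean. The 3 H3K27ac lists named without input (orange) have 13.2 to 16.4 kb in the cluster and the 7 named with input (blue) 25.4 to 37.1 kb, and H3K4me1 at FAS is longest at 1 h.

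H3K4me1 peaks covered more of the cluster, and 23 of the 37 regions were called in all 6 lists (62.2%, against 54.8% of all H3K4me1 regions). At the start sites themselves the receptors differed. TNFRSF10B had a gap of 1187 to 1410 bp around its start site in all 6 lists, flanked on both sides, and the start site of TNFRSF10A was bare in 5 of 6. In contrast, the decoy TNFRSF10C was covered at its start site in 6 of 6 lists, TNFRSF10D in 5, and FAS in 3, with a gap of 1167 to 1536 bp in the others. Across the 9889 protein-coding start sites under H3K27ac in both WT 0 h lists, 44.3 to 63.0% were covered by H3K4me1, the lowest share in WT 10 h replicate 1 and the highest in WT 1 h replicate 2.

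By rank among the 60476 regions called in all 6 H3K4me1 lists, the TNFRSF10D promoter region stood highest of the 5, at the 98.7 to 99.7 percentile, followed by TNFRSF10B at 89.5 to 96.7 and TNFRSF10A at 72.7 to 85.5. FAS (42.5 to 69.0) and TNFRSF10C (37 to 60.2) overlapped in the middle. These merged regions reach beyond the start sites, and in WT 10 h replicate 1 no peak of the TNFRSF10A region touched its promoter window. None of the 5 promoter regions passed in any contrast, with changes of -0.43 ± 0.17 (TNFRSF10B, 10 h against 0 h, adjusted p = 0.473) to 0.42 ± 0.23 (TNFRSF10C, 1 h against 0 h, adjusted p = 0.392). Of the 23 testable regions 0 passed limma at 1 h against 0 h, where 0.291% of all regions rose, 0.304% fell and 0.595% did either, and 3 of the 23 had an unadjusted p under 0.05. At 10 h against 0 h 1 rose and none fell (0.615% and 0.0231% of all regions, 0.638% together), and at 10 h against 1 h 1 rose and 1 fell (1.92% and 1.13%, 3.05% together). By presence, none of the 37 regions was gained or lost at 1 h (3.30% and 1.75% of all regions were). A RHOBTB2 promoter region was lost at 10 h against 0 h (2.29%) and against 1 h (4.65%), and none was gained (2.63% and 2.91%).

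The regions that passed lay at the far end of TNFRSF10B. The region chr8:22870105-22874088 inside RHOBTB2, its centre 54448 bp from the TNFRSF10B start site, stood at the 44.6 and 49.7 percentile at 0 h, 30.9 and 42.3 at 1 h, and 90.1 and 90.3 at 10 h. Its rise was 1.37 ± 0.20 against 0 h (adjusted p = 0.00428) and 1.64 ± 0.20 against 1 h (adjusted p = 0.000683). Without WT 10 h replicate 1 or replicate 2 the first of these had an adjusted p of 0.122 or 0.102. Next to it, chr8:22875996-22879902, which spans the 3' ends of RHOBTB2 and TNFRSF10B, fell from the 85.7 and 79.4 percentile at 1 h to 56.0 and 52.2 at 10 h (-0.84 ± 0.18, adjusted p = 0.0244), and leaving out any 1 of the 4 lists compared gave an adjusted p between 0.0681 and 0.163. In the same stretch an H3K27ac region, chr8:22876005-22879473, was called in both 10 h lists and in neither 1 h list, but also in WT 0 h replicate 1 (-log10 p of 8.57, against 10.7 and 12.5 at 10 h) and in all 4 RAD21 line lists. At FAS the length under H3K4me1 was 8.72 and 10.3 kb at 0 h, 13 and 12.1 kb at 1 h and 7.80 and 8.51 kb at 10 h, so both 1 h lists lay above the others. The 1 h lists were also the longest of the 6 over the whole genome (212 and 198 Mb, against 168 to 196 Mb), and the part of list length in the FAS values was not tested.

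Among the other protein-coding genes that start inside the 2 neighbourhoods, RHOBTB2 had 2 promoter regions, and the one at chr8:22856440-22858245 rose at 1 h in WT cells (0.78 ± 0.16, adjusted p = 0.00395) and fell from 1 to 10 h (-0.99 ± 0.16, adjusted p = 0.000739). CHMP7, a component of the membrane-remodelling ESCRT machinery next to TNFRSF10A, rose at 1 h in the RAD21 line (0.74 ± 0.17, adjusted p = 0.00666, and 0.0862 without 0 h replicate 1 or 0.0529 without 1 h replicate 1) and read -0.40 ± 0.17 in WT cells (adjusted p = 0.102). At 0 h its promoter region was lower in the RAD21 line (-0.74 ± 0.17, adjusted p = 0.00488), and with name form as a term the difference read -0.13. That merged region only touches a promoter window of CHMP7. In WT 0 h replicate 1 and WT 1 h replicate 1 no peak reached the window. In WT 0 h replicate 2 the summit lay 3102 bp downstream of the start site. The promoter of ENSG00000284956, which overlaps TNFRSF10C, fell at 1 h in WT cells (-0.72 ± 0.15, adjusted p = 0.0044) and at 10 h (-0.57 ± 0.15, adjusted p = 0.0234, and -0.19 with name form as a term), and was lower in the RAD21 line at 0 h (-0.94 ± 0.15, adjusted p = 0.000464, and -0.56 with an adjusted p of 0.0891 with name form as a term).

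The rest of the pathway was read from a list of 30 other genes, of which 21 had a promoter region called in all 10 H3K27ac lists. None of the 5 ligand genes was acetylated at its promoter in any list, TNFSF10 (TRAIL) and FASLG included. All 7 inhibitors, 7 of 8 caspases and effectors and 5 of 6 adaptors were in all 10. At 1 h in WT cells 5 of the 21 rose (14.3% of all regions) and 3 fell (14.8%), a median change of 0.07 against -0.01 for all regions. FADD, the adaptor of the death receptors, rose by 0.64 ± 0.11 (adjusted p = 0.00157), as did BCL2L1, which codes for the survival protein Bcl-xL (0.78 ± 0.13, adjusted p = 0.00113), and the FAS-associated DAXX (0.52 ± 0.12, adjusted p = 0.007).

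In the RAD21 line at 1 h 6 of 21 rose (14.4% of all regions) and 3 fell (13.4%). The initiator CASP8 (-0.76 ± 0.12, adjusted p = 0.000613), its inhibitor CFLAR (-0.49 ± 0.13, adjusted p = 0.0153) and BCL2L1 (-0.71 ± 0.13, adjusted p = 0.00155) fell, and TRAF2 (0.73 ± 0.12, adjusted p = 0.0008) and BAX (0.75 ± 0.14, adjusted p = 0.00185), a pore-forming p53 target, rose. CASP8 and BCL2L1 differed from WT cells in this response by -1.01 ± 0.17 (adjusted p = 0.00122) and -1.49 ± 0.18 (adjusted p = 0.000169). Both stood higher in the RAD21 line at 0 h, by 0.93 ± 0.12 and 1.68 ± 0.13, in lists of different name forms. The BCL2L1 region, chr20:30277243-30312570, is a long merged stretch scored by its highest peak, which need not lie at the promoter. Ranked by fold, no region of the genome passed at 1 h in either line or in the difference between their responses. All pathway calls in these 1 h contrasts were therefore lost in that setting. Of 2 known p53 targets read outside the pathway, MDM2 rose at 1 h in WT cells (0.65 ± 0.16, adjusted p = 0.00984) and in the RAD21 line (0.62 ± 0.16, adjusted p = 0.0131). CDKN1A did not pass in either (0.41 ± 0.16, adjusted p = 0.0722, and 0.26 ± 0.16, adjusted p = 0.258), and in WT cells it read 0.12 (adjusted p = 0.51) with name form as a term. H3K4me1 at the pathway's promoters passed in 0 of 25 tested at 1 h and 10 h against 0 h (0.595% and 0.638% of all regions), and in 1 of 25 at 10 h against 1 h (3.05% of all regions), which was BAX (-0.87 ± 0.15, adjusted p = 0.00661).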

How the data were processed

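Chromatin immunoprecipitation was sequenced by the authors. Per the labels and methods, reads were trimmed with Trim Galore 0.6.6, mapped with Bowtie2 2.3.2 to GRCh37 and peaks called with MACS2 2.2.7.1. The deposited lists, 1 per sample, give each peak's fold enrichment over background (a ratio), -log10 p-value and -log10 q-value (all at least 1.30 for H3K27ac and 1.01 for H3K4me1). The deposited whole-number score column, 10 times the -log10 q-value, and the summit offset came from the same caller, and the score was not used. The 10 input samples have no list and were not analysed here. Without read counts no confidence interval could be set.

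Peaks of a mark overlapping by at least 1 bp were merged across lists. Each region called in every list took the highest -log10 p of its peaks, which was ranked within the list and turned into a normal score. limma 3.58.1 (R 4.3.3) was fitted once per mark over all lists, without covariates and with a trended prior, and p-values were adjusted by Benjamini-Hochberg over all regions (threshold 0.05). The script was tested on simulated data. The methods' read-based differential test (DESeq2 1.36.0) needs counts and was not repeated. p-values measure the spread between lists.

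Promoters and gene bodies came from GENCODE lifted to GRCh37, and the sequence was read from that build. The 5 genes, the pathway list and the alternatives were chosen with earlier results of these data known. Named genes were the 5 receptors, protein-coding genes starting in the neighbourhoods, and, of the 30 pathway genes, up to 3 in each direction with the smallest adjusted p per contrast, not all of which are reported here. Alternatives were rank by fold, median-centred log2 fold, replicate block, name form, lists in the fit, q-value threshold, overlap of 50%, flanks of 25 and 100 kb, and each list left out. Agreement between equal replicate numbers was between r = -0.05 and 0.05 across groups, so the numbers were not taken as pairs.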

Additional observations from a re-analysis of the deposited data

Results flagged for a closer look

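In 4 promoter regions of the TNFRSF10 cluster the H3K27ac response to 1 h of Nutlin-3a differed between the RAD21 line and WT cells by the interaction test in limma (22.7% of all regions passed it). TNFRSF10C differed by 1.11 ± 0.31 (adjusted p = 0.0219), because it read -0.65 in WT cells and 0.46 in the RAD21 line. With peak-name form as a term it read 0.89 (adjusted p = 0.0515), and the adjusted p over the alternatives ran from 0.00314 to 0.391, with 7 of 14 passing. It was lost on leaving out WT 0 h replicate 1 (0.0685), WT 0 h replicate 2 (0.0559), RAD21 line 0 h replicate 2 (0.0574) or RAD21 line 1 h replicate 2 (0.108).

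The region that touches a CHMP7 promoter window, next to TNFRSF10A, differed by 1.13 ± 0.24 (adjusted p = 0.00536). With name form as a term it differed by 0.83. RHOBTB2 differed by -0.79 ± 0.23 (adjusted p = 0.0271) at its promoter region chr8:22856440-22858245, and was lost on leaving out any of 6 of the 8 lists, with an adjusted p of 0.0635 to 0.11. ENSG00000284956 differed by 0.64 ± 0.22 (adjusted p = 0.048), and by 0.45 (adjusted p = 0.114) with name form as a term, and was lost on leaving out any list but WT 1 h replicate 1. The part of the name form in these differences was not tested beyond that term.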

How the results depend on the processing

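Peak strength follows the depth and background of each list, which the files do not give, so calls that rest on rank by p carry the main limit here. The alternatives were counted over the changes of neighbourhood regions that passed, without the pathway genes. These changes kept direction and call in 65 of the settings with 1 list left out and 95 of the others, and lost the call in 43 and 49. Direction turned in 2, both on the median-centred log2 fold scale, namely RHOBTB2 at 22856440 in the RAD21 line against WT at 0 h (-0.13) and TNFRSF10C in the RAD21 line against WT at 1 h (-0.066). The cause was not tested.

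At 1 h in WT cells the 6 H3K27ac regions called became 0 by fold, 0 by log2 fold, 0 with only the lists compared and 2 where peaks had to cover 50% of a region, a setting that leaves 3 regions to test. At 10 h against 0 h the 1 became 2 by fold, 5 by log2 fold and 3 with only the lists compared. At 10 h against 1 h the 2 became 1 by fold, 4 with name form as a term, 4 within lists named with input (chosen after seeing the data) and 0 at 50% cover. In the RAD21 line at 1 h the 2 became 0 by fold, 0 by log2 fold, 4 with name form, 4 within one form, 4 with only the lists compared and 1 at 50% cover. Against WT at 0 h the 4 became 2 by fold and 0 at 50% cover. Against WT at 1 h the 1 became 0 by fold, 0 by log2 fold, 2 with name form, 2 within one form, 0 with only the lists compared and 0 at 50% cover. In the interaction the 4 became 0 by fold, 0 by log2 fold and 0 at 50% cover. For H3K4me1 the 1 at 10 h against 0 h became 0 by fold and 0 at a -log10 q of at least 5, and the 2 at 10 h against 1 h became 1 by fold and 1 by log2 fold.

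With the replicate number as a block the H3K27ac counts stayed at 6, 1, 2, 2, 4, 1 and 4 in the same order, and for H3K4me1 at 10 h against 0 h the 1 became 2. The numbers did not pair the samples.

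At a -log10 q of at least 5 the regions lost at 1 h in WT cells went from 1 to 0, those gained at 10 h from 2 to 0 against 0 h and from 3 to 1 against 1 h, those gained in the RAD21 line at 1 h from 7 to 2 and lost from 1 to 0, and those gained against WT from 5 to 0 at 0 h and from 6 to 2 at 1 h. The H3K4me1 losses at 10 h went from 1 to 0 against both 0 h and 1 h. At 50% cover the regions lost at 1 h in WT cells were 2, gained at 10 h against 0 h 6 and lost 1, lost in the RAD21 line at 1 h 2, lost against WT at 1 h 1, and for H3K4me1 gained at 1 h 1, lost at 1 h 1, and lost at 10 h 0 against 0 h and 0 against 1 h.

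With 1 list left out in turn the H3K27ac counts of calls ranged from 2 to 7 at 1 h in WT cells, 0 to 1 at 10 h against 0 h, 2 to 4 at 10 h against 1 h, 1 to 3 in the RAD21 line at 1 h, 2 to 4 against WT at 0 h, 0 to 4 at 1 h and 1 to 5 in the interaction, and for H3K4me1 0 to 0, 0 to 2 and 1 to 1. Gains and losses, for which a lone list then sufficed, ranged from 0 to 5 and 1 to 3 at 1 h in WT cells, 2 to 8 and 0 to 2 at 10 h against 0 h, 3 to 10 and 0 to 4 at 10 h against 1 h, 7 to 12 and 2 to 3 in the RAD21 line at 1 h, 5 to 8 and 1 to 3 against WT at 0 h, and 8 to 13 and 0 to 1 at 1 h. For H3K4me1 they ranged from 0 to 2 and 0 to 3, 0 to 2 and 1 to 5, and 0 to 2 and 1 to 4. A lone list is assumed to vary like the other groups. Covered length was not recomputed at 50% cover.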
